A study of Mus musculus with 24 samples.

Results

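The genes followed here are 10 that belong to neutrophils or to the signals that call them, read from RNA of CD45+ cells of EMT6-hHER2 tumors: S100a8, S100a9, Csf3r, Cxcr2, Retnlg, Cxcl1, Cxcl2, Cxcl3, Cxcl5 and Csf3. They were chosen by symbol, and all 10 had a value in the table of 16996 genes. EMT6 is a murine breast cancer cell line, and EMT6-hHER2 is a derivative that carries human HER2 from a transposon vector and was grown from a single sorted cell, so every tumor came from 1 clone. Female Balb/c wild-type mice received the cells into the mammary fat pad at 8 to 10 weeks of age, and were 10 to 12 weeks old by the label of the samples. When tumors reached 80 mm3, 6 mice were left untreated, 6 received trastuzumab (an antibody to HER2, 20 mg/kg), 6 received T-DM1 (trastuzumab joined to a maytansinoid, 15 mg/kg) and 6 received T-PNU (trastuzumab joined to a derivative of the anthracycline PNU-159682, 1 mg/kg), each as 1 intravenous injection. Tumors were taken 10 days later, CD45+ cells were enriched from the digest with magnetic beads, and 1 library was made per mouse. By the paper's account T-PNU tumors were smaller at harvest than at dosing, so tumor size and treatment cannot be told apart. The paper marks some T-PNU samples as low-responding, and all 6 are kept as 1 group here. All groups carried tumors of this same line, all mice kept their own immune system, and mice of the untreated group received no vehicle or control antibody according to the labels. Enriched CD45+ cells are a mixture, so fewer cells of a type and less RNA per cell cannot be told apart.

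Neutrophils are short-lived granulocytes that leave the bone marrow under the control of G-CSF, the product of Csf3, which acts on its receptor Csf3r. They are drawn into tissue by CXC chemokines with a glutamate-leucine-arginine motif, of which Cxcl1, Cxcl2, Cxcl3 and Cxcl5 are the main mouse members, all acting through the receptor Cxcr2. S100a8 and S100a9 form a calcium-binding heterodimer that fills much of the neutrophil cytosol and is also made by monocytes, and Retnlg, resistin-like gamma, is a secreted protein known from neutrophils and bone marrow. The chemokines and Csf3 are made by many cells, among them macrophages, fibroblasts, endothelial cells and carcinoma cells, and in neutrophils and macrophages Cxcl2 is often abundant. In tumors, neutrophils and related myeloid cells that follow these signals have been described both as suppressors of T cells and as helpers of antibody therapy.

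The members sit at 6 places in the genome (GENCODE M21 on GRCm38). The CXC ligands form a block of 146579 bases on chromosome 5, in the order Cxcl5 (chr5:90759360-90761624), Cxcl3 (chr5:90786103-90789600), Cxcl1 (chr5:90891241-90893115) and Cxcl2 (chr5:90903871-90905938), all on the forward strand. S100a8 (chr3:90668978-90670035, forward) and S100a9 (chr3:90692632-90695721, reverse) lie within 26744 bases of chromosome 3. Csf3r is at chr4:126024550-126044440, Cxcr2 at chr1:74153989-74161246, Retnlg at chr16:48872621-48874496 and Csf3 at chr11:98701263-98703629, all on the forward strand. Reads were counted per gene and by strand.

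The ligands of the chromosome 5 block are known targets of NF-kB, and 3 of their promoters hold the same uninterrupted kappa B run just before the start of transcription. The sequences are the 100 bases from 130 to 31 bases upstream of the RefSeq start (GRCm38.p6, forward strand), with the 11-base run in capitals. They are shown for the shared element, and whether it bears on how these genes vary across the mice was not tested.
Cxcl3 (chr5:90785971-90786070): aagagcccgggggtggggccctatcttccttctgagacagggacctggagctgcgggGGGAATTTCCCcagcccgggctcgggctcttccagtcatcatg
Cxcl1 (chr5:90891115-90891214): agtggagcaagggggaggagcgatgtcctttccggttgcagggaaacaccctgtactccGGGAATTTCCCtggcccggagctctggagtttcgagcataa
Cxcl2 (chr5:90903769-90903868): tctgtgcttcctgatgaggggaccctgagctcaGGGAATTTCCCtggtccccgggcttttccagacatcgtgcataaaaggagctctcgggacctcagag
The run begins 73 bases before the start of Cxcl3, 71 before that of Cxcl1 and 97 before that of Cxcl2. On either strand it was found in 14 of 32851 RefSeq promoters (0.0426%), these 3 among them, searched over the 250 bases before each start. The run was read from these 3 promoters first, so its rarity is no measure of enrichment. The run holds 2 overlapping matches, 1 on each strand, to the looser kappa B pattern GGGANNTTCC, which was found in 397 of those promoters (1.21%). Promoters of 8 members were in the RefSeq table, and 4 of these held that pattern: the chemokine promoters shown and Csf3r, with a match that begins 129 bases upstream. The wider pattern GGGNNNNNCC was found in 45.8% of all promoters and, of the 8, in those 4 and Cxcr2. The C/EBP pattern TTGCNNAA, of a factor family of granulocyte differentiation, was found in 9.56% of all promoters and in those of S100a9 and Retnlg. The AP-1 pattern TGANTCA was in 6.75% of all promoters and in 0 of the 8. These matches describe letters in a window and not binding, and entries for Cxcl5 and Csf3 were not used here.

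All values below are log2 expression as the authors normalized it for library size, and a difference of 1 is a doubling on that scale. On the log2 scale after division by exon length in kilobases, the mean level over 24 mice was 15.2 for Cxcl2, 14.9 for S100a9, 13.9 for Cxcl1, 12.6 for S100a8, 10.3 for Csf3r, 10.1 for Cxcl5, 9.78 for Csf3, 9.12 for Retnlg, 8.77 for Cxcl3 and 8.41 for Cxcr2. The steps of this order that held in 24 of 24 mice were those from S100a9 to Cxcl1, from Cxcl1 to S100a8 and from S100a8 to Csf3r. The other neighbours changed places in some mice: Cxcl2 exceeded S100a9 in 19 of 24, and Csf3r exceeded Cxcl5 in 13 of 24. In the group means Cxcl2 was first and S100a9 second in all 4 groups, and Cxcr2 was last in all but T-PNU, where Cxcl3 (8.66) and Cxcr2 (8.68) were level.

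The label of the set was held against other neutrophil genes. Without correction for length, Ly6g, the surface antigen that defines mouse neutrophils, had a mean level of 4.32 on a scale that ran from 1.13 to 19.7 over all genes. The granule genes Camp (4.43), Ngp (7.01) and Ltf (7.31) were also measured, whereas Elane, Ms4a3 and Fcnb were not in the table. These single genes stood lower than the mean of 28 measured neutrophil surface and cytosolic genes, Ly6g among them. That mean ran from 9.03 in untreated to 9.27 in T-PNU mice. Ptprc, which encodes CD45, had a mean of 14.7. Samples had median values from 8.73 to 8.87, and the depth behind them is unknown. Column headings number untreated mice in a series of their own, so that series and the lack of treatment cannot be told apart. Untreated mice B1 and C1 and trastuzumab mice E2 and B3 do not appear in the study's heatmaps, and its methods state that dissimilar samples could be removed. Untreated C1 had the highest value of all 24 mice for S100a9, Csf3r, Cxcr2 and Cxcl2, and untreated B1 the lowest for Csf3r, Cxcl1, Cxcl2 and Csf3. Each comparison is therefore given with all 24 mice and, where it matters, with the 20 others.

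**Figure D1:**
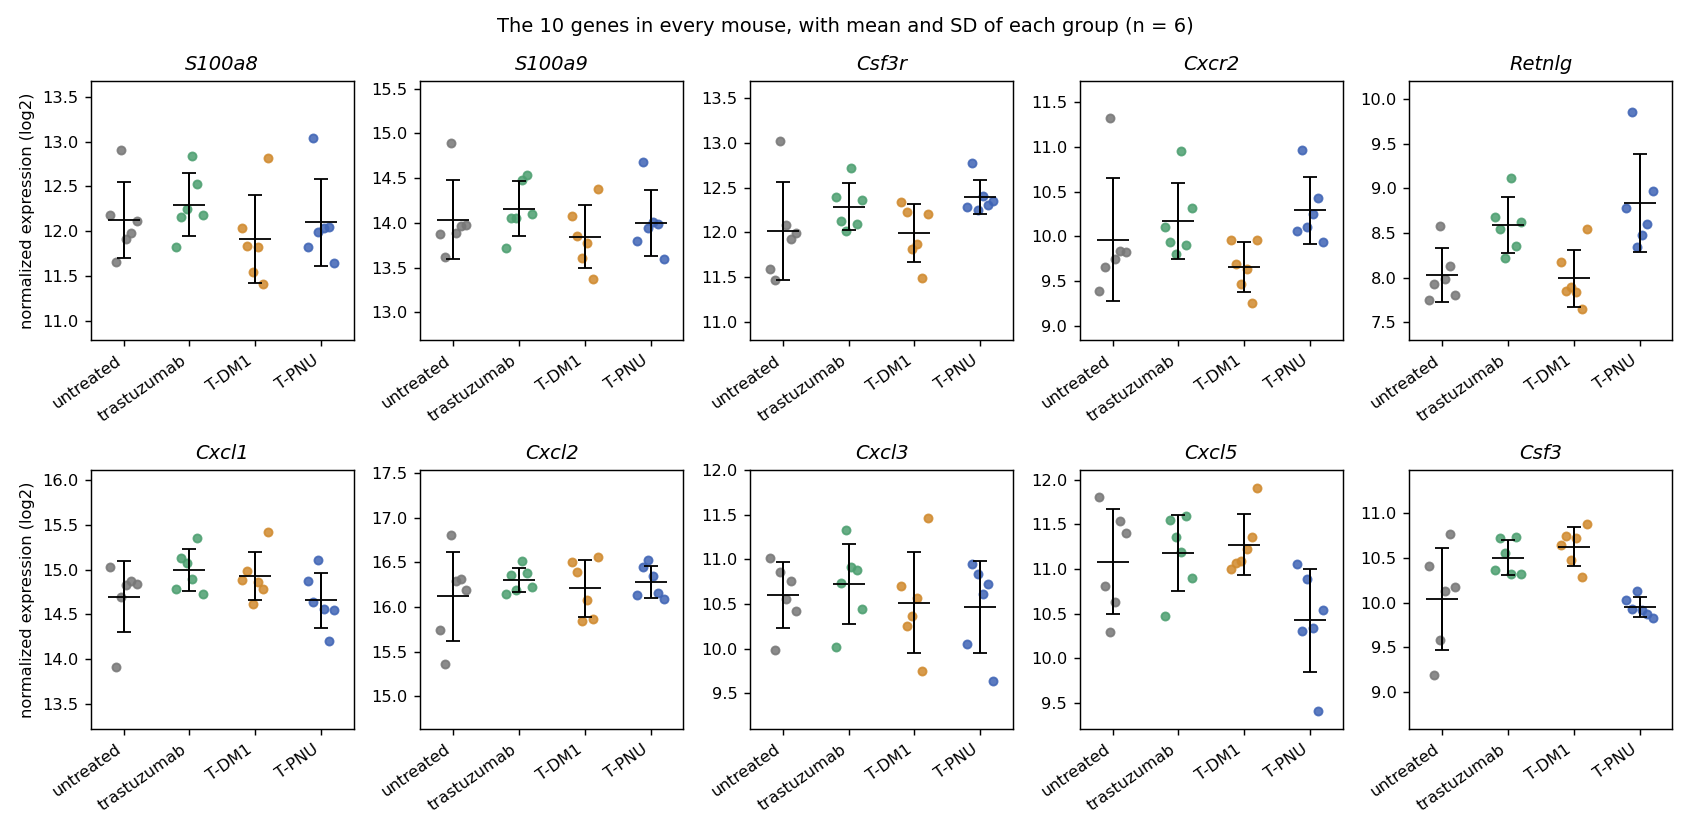
Normalized expression (log2, vertical axis, the same span in each panel) of the 10 genes in 4 groups of 6 mice; points are mice, the wide dash is the group mean and the bars are 1 SD. Csf3 values with T-PNU lie between 9.82 and 10.13, below all trastuzumab and T-DM1 values, whereas S100a8 and S100a9 overlap in all groups.

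S100a8 and S100a9 barely separated the groups. S100a8 ran from 11.66 to 12.90 in untreated mice (median 12.05), from 11.64 to 13.05 with T-PNU (12.01), from 11.82 to 12.84 with trastuzumab (12.22) and from 11.41 to 12.82 with T-DM1 (11.83). S100a9 ran from 13.62 to 14.90 in untreated mice (median 13.92), from 13.59 to 14.68 with T-PNU (13.96), from 13.72 to 14.54 with trastuzumab (14.08) and from 13.38 to 14.38 with T-DM1 (13.82). In each group 1 or 2 mice stood high for both genes, and all groups overlapped. The difference between T-PNU and untreated mice was -0.03 for S100a8 (95% interval -0.52 to 0.47) and -0.03 for S100a9 (-0.45 to 0.39), with limma adjusted p-values of 0.952 and 0.930.

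The receptors Csf3r and Cxcr2 were spread most widely in untreated mice. Csf3r ran from 11.47 to 13.02 in untreated mice (median 11.96), from 12.25 to 12.77 with T-PNU (12.33), from 12.01 to 12.73 with trastuzumab (12.25) and from 11.49 to 12.34 with T-DM1 (12.04). Cxcr2 ran from 9.39 to 11.32 in untreated mice (median 9.79), from 9.93 to 10.97 with T-PNU (10.17), from 9.80 to 10.96 with trastuzumab (10.01) and from 9.25 to 9.95 with T-DM1 (9.66). The untreated maximum of both receptors came from C1, and the other 5 untreated mice lay below every T-PNU mouse for Csf3r and for Cxcr2.

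Retnlg gave the clearest picture among the genes expressed by neutrophils. It ran from 7.75 to 8.57 in untreated mice (median 7.96), from 8.35 to 9.85 with T-PNU (8.69), from 8.22 to 9.12 with trastuzumab (8.58) and from 7.65 to 8.55 with T-DM1 (7.87). Values of untreated and T-DM1 mice covered nearly the same range, and those of T-PNU and trastuzumab mice lay higher, with overlap. In T-PNU mice, 4 of 6 values exceeded every untreated value and 4 of 6 exceeded every T-DM1 value.

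Among the ligands, Cxcl1, Cxcl2 and Cxcl3 overlapped between all groups. Cxcl1 ran from 13.91 to 15.03 in untreated mice (median 14.83), from 14.21 to 15.11 with T-PNU (14.60), from 14.73 to 15.36 with trastuzumab (14.99) and from 14.62 to 15.42 with T-DM1 (14.88). Cxcl2 had medians of 16.25 in untreated, 16.26 in T-PNU, 16.29 in trastuzumab and 16.24 in T-DM1 mice, and ranged over all 24 mice from 15.37 to 16.81. Cxcl3 had medians of 10.66, 10.67, 10.80 and 10.46 in the same order, and ranged from 9.64 to 11.46. The group medians of Cxcl2 thus lay closer together than the mice of any group.

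Cxcl5 and Csf3 had their lowest group medians with T-PNU. The mean of Csf3 with T-PNU differed from that of untreated mice by only -0.09, while trastuzumab (0.46) and T-DM1 (0.58) stood above untreated mice. Cxcl5 ran from 10.30 to 11.81 in untreated mice (median 11.11), from 9.41 to 11.05 with T-PNU (10.45), from 10.47 to 11.59 with trastuzumab (11.27) and from 10.996 to 11.91 with T-DM1 (11.16). Its lowest value of all came from T-PNU mouse C2, and 5 of 6 T-PNU mice lay below every T-DM1 mouse. Csf3 ran from 9.19 to 10.77 in untreated mice (median 10.16), from 9.82 to 10.13 with T-PNU (9.93), from 10.32 to 10.74 with trastuzumab (10.46) and from 10.28 to 10.88 with T-DM1 (10.69). All 6 T-PNU values of Csf3 lay below every trastuzumab and every T-DM1 value and inside the wide range of the untreated mice. The share of all genes whose groups separate in this way was not computed. The SD of Csf3 was 0.11 with T-PNU and 0.57 in untreated mice (n = 6 each).

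The first comparison asks what the immune cells of a T-PNU-treated tumor express beside those of an untreated one. Over 24 mice, 0 of the 10 genes passed limma's test at an adjusted p under 0.05, while 2 were under 0.05 before adjustment. Of all 16996 genes 0.188% passed, 23 higher and 9 lower with T-PNU. Retnlg came nearest, higher with T-PNU by 0.81 (standard error 0.21, adjusted p = 0.0647), and a two-sided exact permutation test of that gene alone gave p = 0.00649. Without adjustment 17.4% of all genes were under 0.05 by the permutation test. Cxcl5 differed by -0.66 (standard error 0.27, adjusted p = 0.141). The receptors differed by 0.38 (Csf3r, adjusted p = 0.221) and 0.33 (Cxcr2, adjusted p = 0.401), and the remaining ligands by -0.04 (Cxcl1), 0.16 (Cxcl2), -0.13 (Cxcl3) and -0.09 (Csf3).

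With the 20 mice of the heatmaps, 5 of the 10 genes passed between T-PNU and untreated mice, beside 31.1% of all genes. Retnlg (0.92, adjusted p = 0.0107), Cxcr2 (0.59, adjusted p = 0.0429) and Csf3r (0.50, adjusted p = 0.0276) were then higher with T-PNU, and Cxcl5 (-0.92, adjusted p = 0.0152) and Csf3 (-0.42, adjusted p = 0.0189) lower. The call rests largely on untreated C1: without that mouse alone 4 genes passed, namely Csf3r, Cxcr2, Retnlg and Cxcl5, while the share over all genes rose from 0.188% to 17.2%, so the change was not confined to the members. The differences of S100a8 and S100a9 were small in both fits and turned from -0.03 each to 0.05 and 0.08.

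The second comparison sets the anthracycline conjugate against the maytansinoid conjugate of the same antibody, given at different doses. Between T-PNU and T-DM1 mice 3 of the 10 genes passed, 1 higher and 2 lower with T-PNU. Of all genes 29.8% passed, 12.4% higher and 17.4% lower, so that 3 of 10 is the share found over the whole table. Retnlg was higher with T-PNU by 0.84 (standard error 0.21, adjusted p = 0.00637), 1.79-fold on this scale. Cxcl5 was 1.80-fold lower (log2 difference -0.85, standard error 0.27, adjusted p = 0.0218), and Csf3 was 1.60-fold lower (-0.68, standard error 0.18, adjusted p = 0.00845). Exact permutation tests of these genes, 6 mice against 6, gave p = 0.00649 for Retnlg, 0.00433 for Cxcl5 and 0.00216 for Csf3, the last being the smallest p that this design allows. Without adjustment 44.0% of all genes were under 0.05 by that test.

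The receptors leaned the same way as Retnlg without passing between T-PNU and T-DM1. Cxcr2 differed by 0.63 (95% interval 0.11 to 1.16, adjusted p = 0.0605), with 5 of 6 T-PNU mice above every T-DM1 mouse, and Csf3r by 0.40 (adjusted p = 0.117). Both passed with 20 mice (adjusted p = 0.0141 for Cxcr2 and 0.0332 for Csf3r), where 5 of 10 members passed beside 39.9% of all genes. No T-PNU or T-DM1 mouse is left out there, so only the estimate of the spread and the adjustment differ. S100a8 (0.19), S100a9 (0.16), Cxcl1 (-0.27), Cxcl2 (0.08) and Cxcl3 (-0.05) had adjusted p-values from 0.226 to 0.901. The Cxcl5 call was lost without T-PNU mouse C2 (-0.65, adjusted p = 0.0643) and without T-DM1 mouse H3 (-0.72, adjusted p = 0.0518).

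**Figure D2:**
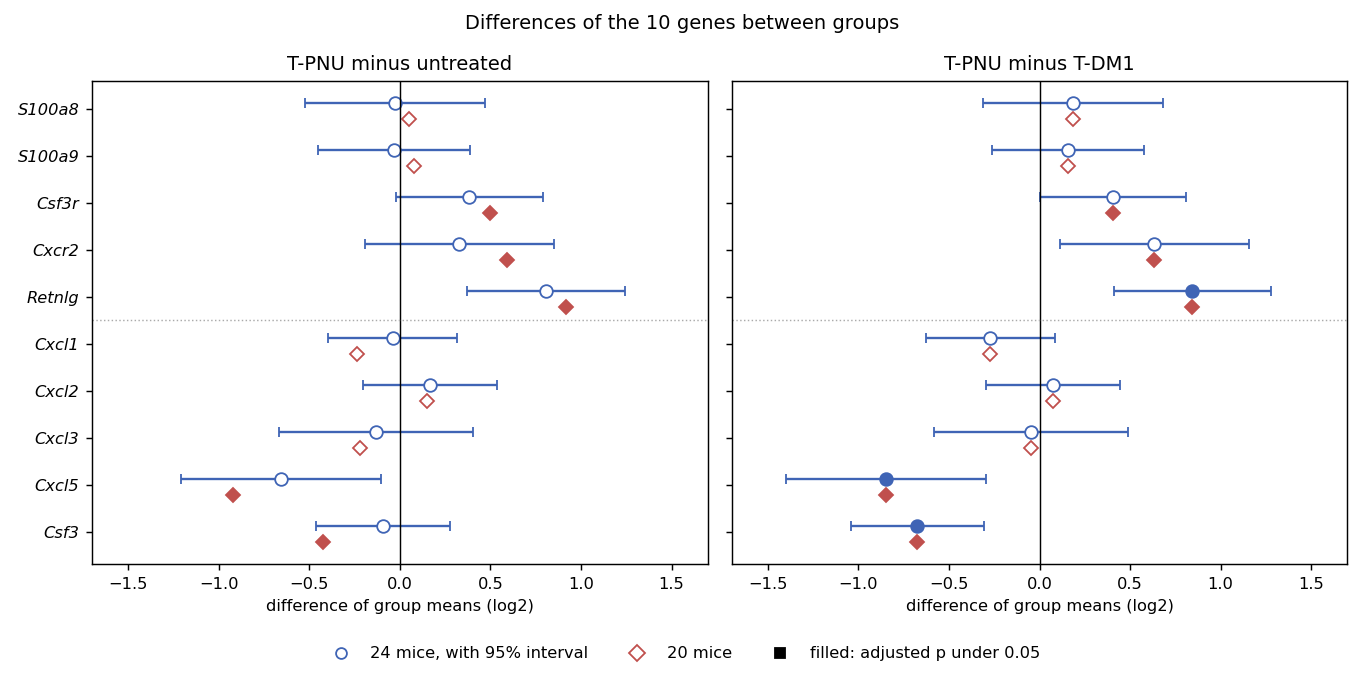
Log2 difference of group means (horizontal axis) for each gene, T-PNU minus untreated on the left and T-PNU minus T-DM1 on the right; circles are the 24-mouse fit with its 95% interval, diamonds the 20-mouse fit, and filled symbols an adjusted p under 0.05. Retnlg lies to the right and Cxcl5 to the left in both panels, and Csf3 lies at -0.09 against untreated mice and at -0.68 against T-DM1 mice.

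The other comparisons gave no call among the 10 genes over 24 mice. Between T-DM1 and untreated mice 6.27% of all genes passed, and Csf3 came close, higher with T-DM1 by 0.58 (adjusted p = 0.0515). It passed without untreated mouse E1 (0.73, adjusted p = 0.00842), where 9.57% of all genes did, or without T-DM1 mouse G3 (0.65, adjusted p = 0.0440), where 4.82% did. Between trastuzumab and untreated mice 0.259% of all genes passed, and Retnlg (0.56, adjusted p = 0.383) and Csf3 (0.46, adjusted p = 0.413) were the members under 0.05 before adjustment. T-PNU and trastuzumab mice differed in 0.00588% of all genes. Csf3 differed there by -0.55 (adjusted p = 0.166) with no overlap between the groups (exact permutation p = 0.00216), and Cxcl5 by -0.75 (adjusted p = 0.175). By the permutation test, which is unadjusted, 15.9% of all genes were under 0.05 in that comparison, and the share without overlap was not computed. With 20 mice, without trastuzumab E2 and B3, 3 members were lower with T-PNU than with trastuzumab: Csf3 by -0.63 (adjusted p = 0.00630), Cxcl5 by -0.998 (adjusted p = 0.0150) and Cxcl1 by -0.46 (adjusted p = 0.0337), beside 28.0% of all genes called. Between T-DM1 and trastuzumab mice 0.647% of all genes passed, and Retnlg differed by -0.60 (adjusted p = 0.174). Comparisons that share a group share its mice, so these values are not independent of each other.

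Apart from the groups, the genes expressed by neutrophils varied together from mouse to mouse. Each value was taken as its deviation from the group mean, and all 45 pairs were correlated over 24 mice, with p-values from 100000 permutations adjusted over the 45. Before adjustment 1e-05 is the smallest p these can give. The permutations moved deviations freely across groups, without regard to the removed means or to unequal spread, so their p-values may be too small. Among S100a8, S100a9, Csf3r, Cxcr2 and Retnlg all 10 pairs had a positive r, from 0.66 to 0.95, and 7 passed by both Pearson's r and Spearman's rho. S100a8 and S100a9 were closest, with r = 0.95 and rho = 0.89 (adjusted p = 9e-05 and 0.000113), and r was 0.96 without the 2 mice farthest from the median. Csf3r and Cxcr2 followed with r = 0.91 and rho = 0.86 (adjusted p = 9e-05 and 0.000113), and r was 0.82 without the 2 farthest mice. The relation of S100a8 to Retnlg rested on a few mice: r was 0.72 and rho 0.22, and r fell to 0.48 without T-PNU mouse H1 and T-DM1 mouse H3. Over the 18 treated mice alone, r within these genes ran from 0.62 to 0.96. With the 20 mice of the heatmaps it was 0.95 for S100a8 and S100a9 and 0.88 for Csf3r and Cxcr2.

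The ligands held together less. Their 10 pairs had r from -0.05 to 0.76, and 5 passed by both measures. Cxcl1 went with Csf3 (r = 0.76, rho = 0.84, adjusted p = 0.000129 and 0.000113, r = 0.62 without the 2 farthest mice) and with Cxcl5 (r = 0.69, rho = 0.73, adjusted p = 0.000771 and 0.000386, r = 0.74 without them). Of the neighbours with the shared promoter run, Cxcl1 and Cxcl2 had r = 0.55 and rho = 0.48 (adjusted p = 0.0138 and 0.0472), but r was 0.26 without untreated B1 and T-DM1 H3, so that relation rests on those mice. Cxcl2 and Cxcl3 had r = 0.54 and rho = 0.53 (adjusted p = 0.0138 and 0.0245, r = 0.49 without the 2 farthest mice). Cxcl1 and Cxcl3 had r = 0.52 and rho = 0.46, with adjusted p-values of 0.0186 and 0.0553, and r was 0.32 without untreated B1 and T-DM1 H3 and 0.37 with the 20 mice. Cxcl2 and Cxcl5, in the same block, had r = -0.05. With the 20 mice, r was 0.61 for Cxcl1 and Csf3, 0.78 for Cxcl1 and Cxcl5 and 0.41 for Cxcl1 and Cxcl2.

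Cxcl2 had r from 0.45 to 0.82 with the genes expressed by neutrophils and from -0.05 to 0.55 with the other ligands, a difference that was not tested. Its r was 0.82 with Csf3r (rho = 0.69, adjusted p = 9e-05 and 0.0012, r = 0.75 without the 2 farthest mice) and 0.77 with S100a9 (rho = 0.80, adjusted p = 9e-05 and 0.000113, r = 0.73 without them). Cxcl3 went with S100a8 (r = 0.75, rho = 0.80, adjusted p = 0.000225 and 0.0003, r = 0.67 without them). Of the 25 pairs of a gene expressed by neutrophils with a ligand, 16 had a positive r and 6 passed by both measures. Cxcr2 and its ligand Cxcl5 had the lowest r of all, -0.44, with adjusted p-values of 0.0533 and 0.0600.

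**Figure D3:**
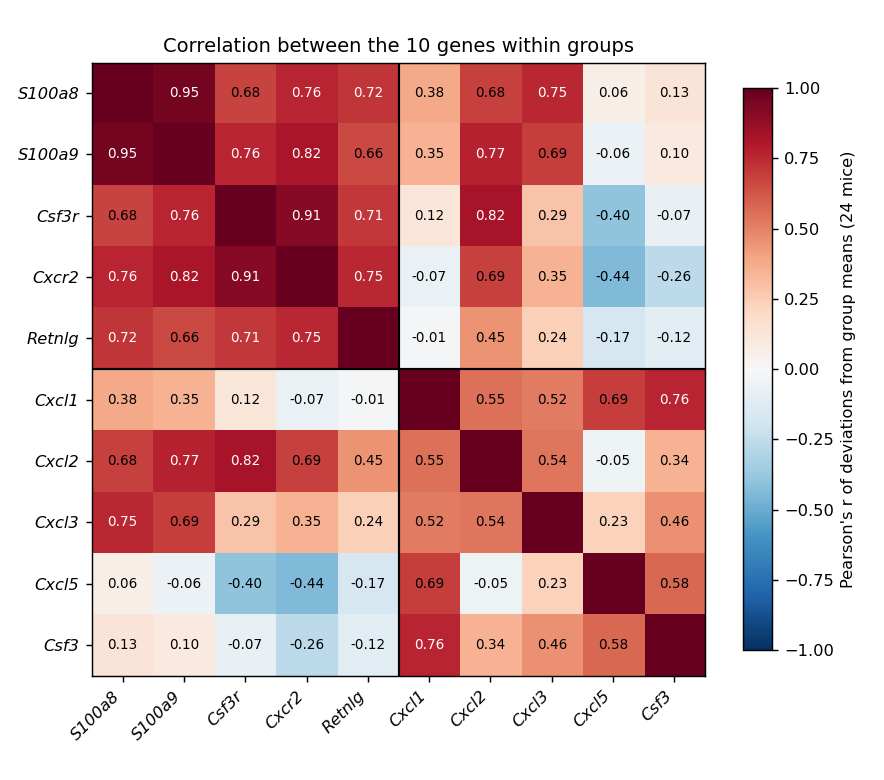
Pearson's r (color and number) between the 10 genes after removal of group means, over 24 mice; black lines divide genes expressed by neutrophils from ligands. The upper left block is positive throughout (0.66 to 0.95), and Cxcl2 has r of 0.82 with Csf3r and 0.77 with S100a9, whereas Cxcl5 and Csf3 stay between -0.44 and 0.13 with that block.

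Markers of other cells moved with Cxcl5 and Csf3. Between T-PNU and T-DM1 mice, 10 of 12 fibroblast and mesenchymal genes were lower with T-PNU, beside 17.4% of all genes (median difference -1.32, against 0.03 over all genes), among them Col1a1 (-1.62, adjusted p = 0.00139), Col3a1 (-1.38, adjusted p = 0.000850) and Pdgfrb (-1.57, adjusted p = 0.00133). As a mean difference from the 24-mouse average, the list stood between -1.24 and -0.03 with T-PNU, 0.45 and 0.71 with T-DM1, -0.19 and 0.47 with trastuzumab and -0.85 and 0.08 in untreated mice. None of its defining markers was near the floor of the scale; Col1a2 had a mean level of 15.2. Within groups, Cxcl5 varied with this list (r = 0.78, rho = 0.71, adjusted p = 8.89e-05 and 0.000889 over 40 relations, r = 0.63 without T-PNU C2 and untreated C1, r = 0.79 over the 18 treated mice). Csf3 had r = 0.56 and rho = 0.67 with it (adjusted p = 0.0107 and 0.00204, r = 0.56 without them, 0.42 over the treated mice). Cxcl1, which did not pass between T-PNU and T-DM1, went with the list to a like degree (r = 0.56, rho = 0.63, adjusted p = 0.0112 and 0.00470, r = 0.56 without them, 0.59 over the treated mice), and Cxcr2 had r = -0.64 and rho = -0.55 (adjusted p = 0.00400 and 0.0153, r = -0.56 without them). The cells had been selected for CD45 with beads, and the methods state that purity was checked by flow cytometry. The source of the fibroblast RNA, and the part of fibroblasts in the Cxcl5 and Csf3 differences, were not tested.

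**Figure D4:**
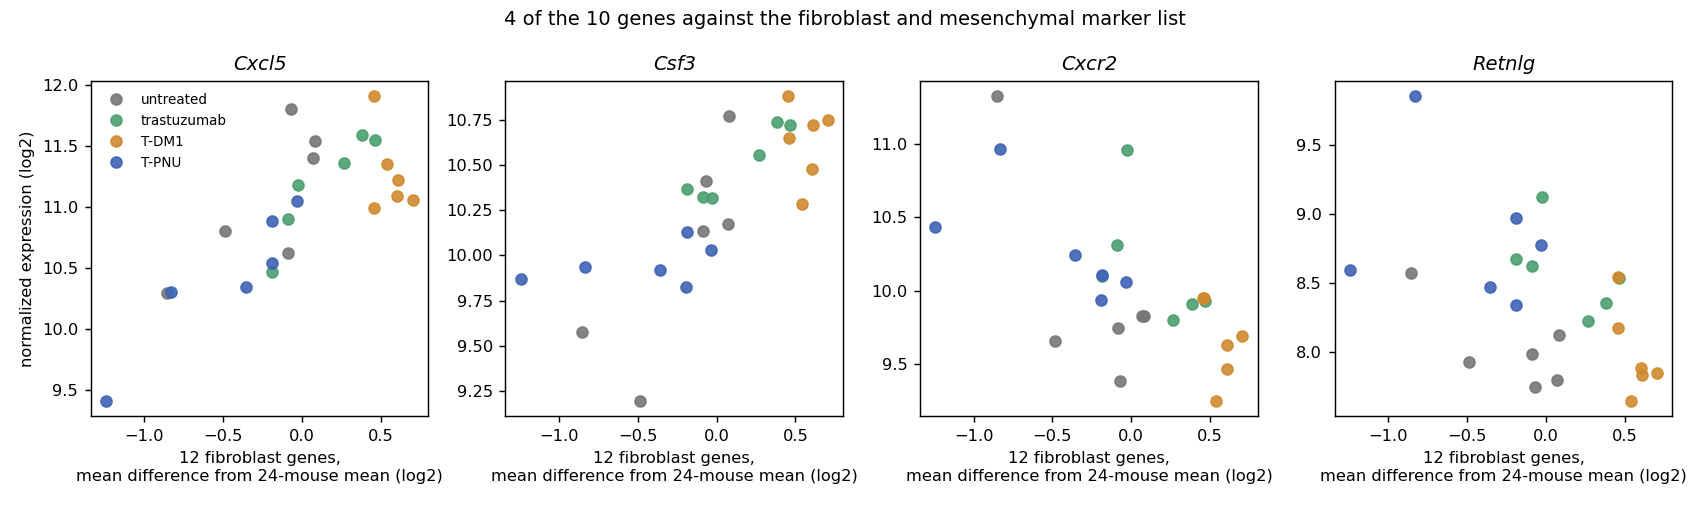
Level of 4 of the genes in each mouse (log2, vertical axes) against the mean of 12 fibroblast and mesenchymal genes as a difference from the 24-mouse mean (log2, horizontal axis); colors are the 4 groups of 6 mice. T-DM1 mice lie at 0.45 to 0.71 and T-PNU mice at -1.24 to -0.03 on the horizontal axis, and Cxcl5 and Csf3 are higher to the right.

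T cell genes moved against the same ligands. Within groups, the 10-gene T cell list had r = -0.87 with Cxcl1 (rho = -0.85, adjusted p = 5e-05 and 0.0001), r = -0.78 with Cxcl5 (rho = -0.79, adjusted p = 5e-05 and 0.0001) and r = -0.69 with Csf3 (rho = -0.78, adjusted p = 0.000327 and 0.000133). Without untreated B1 and trastuzumab E2, r was -0.84, -0.78 and -0.59 in that order. Over the 18 treated mice r was -0.85, -0.83 and -0.72, and over the 6 untreated mice -0.91, -0.67 and -0.80. All 10 T cell genes had a positive difference between T-PNU and untreated mice (median 0.96), of which 0 passed over 24 mice and 10 over 20 mice, beside 31.1% of all genes. The part of T cells in the levels of these ligands was not tested.

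Other neutrophil genes went with 7 of the 10 members within groups. The mean of 28 measured neutrophil surface and cytosolic genes had r = 0.93 with S100a9 (rho = 0.92, adjusted p = 5e-05 and 0.0001, r = 0.88 without untreated C1 and T-PNU H1) and r = 0.85 with Cxcl2 (rho = 0.88, adjusted p = 5e-05 and 0.0001, r = 0.84 without them). Its r was 0.76 to 0.90 with the other genes expressed by neutrophils and 0.60 with Cxcl3, all with adjusted p-values under 0.05 by both measures. It was 0.31 with Cxcl1, 0.12 with Csf3 and -0.17 with Cxcl5 (adjusted p = 0.192, 0.619 and 0.512). The macrophage and monocyte list also went with Cxcl2 (r = 0.83, rho = 0.60, adjusted p = 5e-05 and 0.00697, r = 0.61 without untreated B1 and C1). It went with Cxcl1 too (r = 0.66, rho = 0.64, adjusted p = 0.00332 and 0.00371, r = 0.68 without them), and no other member passed by both measures with that list. Between T-PNU and untreated mice 27 of the 28 neutrophil genes had a positive difference with a median of 0.19 (0.01 over all genes), 0 passed, and Cd33 had the 1 negative difference (-0.20, adjusted p = 0.522). With 20 mice 4 of 28 passed, all higher and among them Cd177, Mmp8 and Selplg, beside 31.1% of all genes. Over 24 mice, 26 of 28 were also positive between trastuzumab and untreated mice (median 0.18). Between T-DM1 and untreated mice 14 of 28 were positive (median -0.0007) and 3 passed, all higher with T-DM1, beside 6.27% of all genes. Between T-PNU and trastuzumab mice 14 of 28 were positive (median 0.0004). Between T-PNU and T-DM1 mice 21 of 28 were positive (median 0.18) and 1 passed, Ly6g (0.44, adjusted p = 0.0421), beside 29.8% of all genes. Of 10 measured genes of neutrophil precursors, a list of granule genes and transcription factors, 9 were higher with T-PNU than in untreated mice (median 0.34). Against untreated or T-DM1 mice 0 passed. With 20 mice Camp, Ltf and Gfi1 passed, higher than in untreated mice, so that 3 of 10 stood beside 31.1% of all genes. The extremes over 24 mice were Gfi1, a repressor needed for granulocyte maturation (0.71, adjusted p = 0.271), and Mpo, myeloperoxidase (-0.03, adjusted p = 0.886).

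Of 10 other CXC chemokines, 0 passed between T-PNU and untreated mice, with Cxcl12 (1.01, adjusted p = 0.0603) and Cxcl14 (-0.49, adjusted p = 0.165) at the ends. With 20 mice Cxcl11, Cxcl12 and Cxcl15 were higher and Cxcl14 lower, 4 of 10 beside 31.1% of all genes. Against T-DM1 mice 2 were higher with T-PNU, Cxcl12 (0.83, adjusted p = 0.0177), the ligand of Cxcr4, and Cxcl13 (0.91, adjusted p = 0.0317), a B cell attractant, and 1 was lower, Ppbp (-0.74, adjusted p = 0.0481), a platelet-derived ligand of Cxcr2. The median of the list was 0.24, and 3 of 10 called stood beside 29.8% of all genes.

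Of 19 measured genes tied to the induction of CXCR2 ligands and G-CSF, 0 passed between T-PNU and untreated mice. The list holds cytokines, receptors and NF-kB factors, with inhibitors of IL-1 and NF-kB signaling among them, so its counts and median mix both kinds. Csf2rb (0.32, adjusted p = 0.152) and Il1r1 (-0.58, adjusted p = 0.0978) were at the ends. With 20 mice Rela was higher and Il1r1, Csf2 and Csf1 were lower, 4 of 19 beside 31.1% of all genes. Against T-DM1 mice 4 were lower with T-PNU: Il17rc (-1.15, adjusted p = 0.00218), a subunit of the IL-17 receptor, Csf1 (-0.79, adjusted p = 0.0126), the macrophage growth factor, Il1r1 (-0.78, adjusted p = 0.00730), the receptor of IL-1, and Nfkb2 (-0.27, adjusted p = 0.0318). The median of the list was -0.04, and 4 of 19 were called where 29.8% of all genes were.

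Of 16 other neutrophil attractants and their receptors, 0 passed between T-PNU and untreated mice, where Ackr1, a decoy receptor of chemokines, had 0.71 (adjusted p = 0.104) and Alox5, 5-lipoxygenase, -0.24 (adjusted p = 0.370). With 20 mice Ccl6, Ackr1, Grk2 and Cxcr4 were higher and Lta4h lower, 5 of 16 beside 31.1% of all genes. Against T-DM1 mice 3 were higher with T-PNU, namely the chemokine Ccl6 (0.92, adjusted p = 0.0103), the receptor Cxcr4 that holds neutrophils in bone marrow (0.78, adjusted p = 0.0397) and Ackr1 (0.75, adjusted p = 0.0300). The leukotriene enzyme Lta4h was lower (-0.14, adjusted p = 0.0410), so that 4 of 16 were called beside 29.8% of all genes. In the same comparison 3 of 4 pan-leukocyte genes, 5 of 12 macrophage and monocyte genes, 5 of 10 measured eosinophil and mast cell genes and 6 of 7 endothelial genes were higher with T-PNU, where 12.4% of all genes were.

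Genes outside the set were ranked by how much their mouse-to-mouse pattern was like that of its cell genes or of its ligands. Likeness was r over 24 mice between a gene's deviation from its group mean and the mean deviation of 5 members. For the genes expressed by neutrophils the 5 most like were 9830107B12Rik (0.95), Steap4 (0.95), Tlr6 (0.95), F630028O10Rik (0.94) and Il1f9 (0.93). For the ligands they were Raph1 (0.91), Ptgs2 (0.91), Mapk6 (0.90), Mmp13 (0.89) and Cd44 (0.89). Of these 10 genes, 9830107B12Rik (0.52, adjusted p = 0.0307) and Tlr6 (0.51, adjusted p = 0.0193) were higher with T-PNU than with T-DM1, where 12.4% of all genes were, and 0 passed between T-PNU and untreated mice.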

How the data were processed

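RNA-seq values of 24 mice (6 untreated, 6 T-PNU, 6 trastuzumab, 6 T-DM1) were taken from the deposited table. Per the submitters' processing notes and the methods, the authors aligned reads to mm10 with STAR 2.4.2a, counted them per gene with featureCounts (Subread 1.5.0) by strand, removed genes with an average read count below 5 and used DESeq2. The deposited values are log2, normalized for library size by the authors. Their transformation is not named, and if they are shrunken, differences understate changes of weakly expressed genes. Counts were not used, so the depth per sample, and with it counting error, is unknown.

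Groups came from the sample labels. A linear model was fitted in limma 3.58.1 (R 4.3.3) to 4 groups in 1 fit with a trend and no covariate (20 residual degrees of freedom), and p-values were adjusted over 16996 genes by the Benjamini-Hochberg method, without a filter. Genes were called at an adjusted p under 0.05. Exact permutation tests were two-sided over the 924 ways to divide 12 mice. Correlations used deviations from group means and 100000 permutations. Named are all 10 members, genes of the 5 pathway lists that passed in the 2 comparisons of T-PNU described first or the extremes where none passed, and the 5 genes most like the cell genes and the 5 most like the ligands. Genes of the marker lists, and pathway genes called with 20 mice, were named after their values were seen. A gene that this rule covers is not reported here. The members and lists were chosen with earlier results of these data known. Alternatives were the 20 mice of the heatmaps, quantile normalization, a filter on the mean, fits of 2 groups, array weights, the study's thresholds and each mouse left out. The fit and the permutations were tested on simulated data. Figures were drawn with matplotlib 3.10.9 in Python 3.11.15. Not in the table were Itgb2l, Il17a, Epx, Ear1, Hbb-bs and Hbb-bt.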

Additional observations from a re-analysis of the deposited data

Results flagged for a closer look

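Among 40 sets of 6 values, 1 for each gene and group, 5 held a mouse whose gap to its nearest neighbour took more of the whole range than Dixon's 95% critical value for 6 samples. Chance alone flags about 1 in 20 such sets. T-PNU mouse H1 stood high for S100a8 (13.05) and Csf3r (12.77). Untreated mouse C1 stood high for S100a9 (14.90) and Cxcr2 (11.32). Untreated mouse B1 stood low for Cxcl1 (13.91).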

How the results depend on the processing

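Quantile normalization and a fit without a trend left every count of called members within 1.5 times the main one. With the 20 mice of the heatmaps 5 of 10 members were called for T-PNU against untreated mice (0 over 24), 3 for T-PNU against trastuzumab (0) and 5 for T-PNU against T-DM1 (3). Of all genes 31.1%, 28.0% and 39.9% were called in these comparisons. With array weights the counts were 3, 3 and 5 in that order (34.3%, 13.3% and 44.6% of all genes), with 1 for T-DM1 against untreated (0; 19.4% of all genes) and 1 for T-DM1 against trastuzumab (0; 7.25%). Unadjusted exact permutation tests gave 1, 2 and 5 in the same order (17.4%, 15.9% and 44.0% of all genes), 1 for T-DM1 against untreated (23.5%), 1 for trastuzumab against untreated (0 in the fit; 7.07%) and 2 for T-DM1 against trastuzumab (19.3%). A fit of T-PNU and T-DM1 alone called 5 (32.8% of all genes), and the study's thresholds called 0 (1.91%). Among genes with a mean above the median 1 was called for T-DM1 against untreated (8.81% of the genes tested). Leaving out 1 mouse gave 0 to 4 for T-PNU against untreated (4 without C1, with 17.2% of all genes, and 1 without G1 or A2, with 5.94% and 1.42%) and 0 to 1 for T-DM1 against untreated (1 without E1 or G3, with 9.57% and 4.82%). The cause of these changes was not tested.

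Small differences changed sign. Between T-PNU and untreated mice S100a8 went to 0.053 and S100a9 to 0.079 with 20 mice. With 1 mouse left out the same difference ran from -0.22 to 0.13 for S100a8, -0.17 to 0.14 for S100a9, -0.20 to 0.050 for Cxcl1, -0.25 to 0.034 for Cxcl3 and -0.26 to 0.053 for Csf3. Between T-PNU and T-DM1 mice it ran from -0.0030 to 0.37 for S100a8 and -0.20 to 0.14 for Cxcl3. Of the other values, 452 kept their sign and their side of the threshold, 39 passed newly and 2, both of Cxcl5 without 1 mouse, no longer passed. Permutation tests entered this tally at an unadjusted p under 0.05, a looser threshold than that of the fit. Outside T-PNU against untreated and T-PNU against T-DM1, only members under 0.05 before adjustment or called with 20 mice were counted, which favors new passes. No paired analysis was possible because the groups share no replicate numbers. Depth is unknown, so its limit on precision cannot be stated.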
